A study of Mus musculus with 6 samples.

Results

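Levels of 8 cytokine receptor genes, Flt3, Csf1r, Il2rg, Il7r, Crlf2, Csf2rb, Csf3r and Il6ra, were examined in sorted mouse thymus cells with and without RBPJ. The 8 were chosen by symbol as receptors of lymphoid and myeloid progenitors, and all 8 matched an Ensembl gene among the 47729 in the count files. RNA had been sequenced from FACS-sorted DN1a/b thymocytes of C57BL/6 mice, the least mature cells of the thymus, in 3 groups of 2 libraries. In the RBPJ 6 days induced group, mice that lacked RBPJ at first were made to express it with doxycycline, injected intraperitoneally at 2 mg/ml and then supplied in the drinking water at 1 mg/ml. RBPJ uninduced mice lacked RBPJ, and Control mice had kept its expression throughout. The sources used here do not give how RBPJ was removed, which promoter or cell type drove the inducible copy, the age of the mice or whether uninduced or Control mice were given doxycycline. Where induced libraries are compared, effects of RBPJ and doxycycline cannot be told apart. The labels do not name separate mice for the 2 libraries within a group, so the p-values cover a spread that may be technical.

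Cytokine receptors let progenitors read signals for survival, division and lineage choice. FLT3 and CSF1R are receptor tyrosine kinases with a kinase of their own, whereas the other 6 genes encode chains of receptors that signal through bound JAK kinases and the STAT proteins these phosphorylate. Several chains are shared: the common gamma chain, encoded by Il2rg, completes the receptors for IL-7, IL-2, IL-4 and related cytokines, and the common beta chain, encoded by Csf2rb, completes those for GM-CSF, IL-3 and IL-5. In the thymus, FLT3 marks the earliest progenitors and IL-7 supports developing thymocytes, while the receptors for GM-CSF, G-CSF and M-CSF are better known from granulocyte, mast cell and macrophage development. RBPJ binds DNA and carries Notch signals to the genes that Notch receptors activate.

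The libraries held between 5098927 and 12932928 counts. Rbpj followed the labels, with 198 and 203 CPM (counts scaled to a common library total) in RBPJ 6 days induced, 28.2 and 30.0 CPM in RBPJ uninduced and 74.1 and 72.9 CPM in Control libraries, although gene counts do not separate reads of Rbpj from reads of near-identical pseudogene copies. The log2 fold change was -1.34 for uninduced over Control (SE 0.186, adjusted p = 0.00495, or 0.057 with only the 4 libraries compared, within 2.44e-10 to 0.057 over the alternatives) and 2.78 for induced over uninduced (SE 0.192, adjusted p = 0.000507). Induced over Control was 1.45 (SE 0.182, adjusted p = 0.0175), so Rbpj RNA was higher after induction than in Control libraries. That fold change ranged from 1.37 to 1.51 over 14 alternatives and passed under 11. The uninduced libraries kept Rbpj counts, though these mice are described as lacking RBPJ. Kit, a defining surface receptor of DN1a/b cells, was abundant in every library, at 618 and 631 CPM in induced, 630.4 and 398 CPM in uninduced and 515 and 372 CPM in Control libraries. The uninduced libraries stood apart from each other. Replicate 2 carried 819 CPM of B-lineage marker RNA summed over 9 genes, against 32.3 CPM in replicate 1, and replicate 1 carried the most myeloid and mast cell marker RNA of the 6 libraries. Control replicate 2 carried 539 CPM of later thymocyte marker RNA against 75.2 CPM in replicate 1. Results of the receptor genes and the named pathway genes are given with and without these libraries where they depend on them. Calls among the marker lists are given from fits of all 6 libraries.

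Csf2rb and Csf3r, receptors of myeloid cytokines, rose in RBPJ uninduced relative to Control libraries, and Il2rg, the common gamma chain, fell. By edgeR's quasi-likelihood test with Benjamini-Hochberg adjustment over the 18174 genes tested, 2 of the 8 genes were higher, beside 2.49% of all tested genes, and 1 was lower, beside 2.93%, so 3 of 8 passed where 5.42% of all tested genes did. After 6 days of induction Il2rg was higher than in uninduced libraries, the 1 gene of the 8 past the threshold in that direction, where 1.55% of all tested genes were. None was lower, beside 0.413% of all tested genes, and 1.96% passed in either direction. Flt3 lay at the edge of the 0.05 threshold in both comparisons, and Il7r, Crlf2, Csf1r and Il6ra did not pass it in either. All 8 passed the filter on low counts. Both comparisons use the same uninduced libraries, so a chance deviation there enters them with opposite sign.

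**Figure D1:**
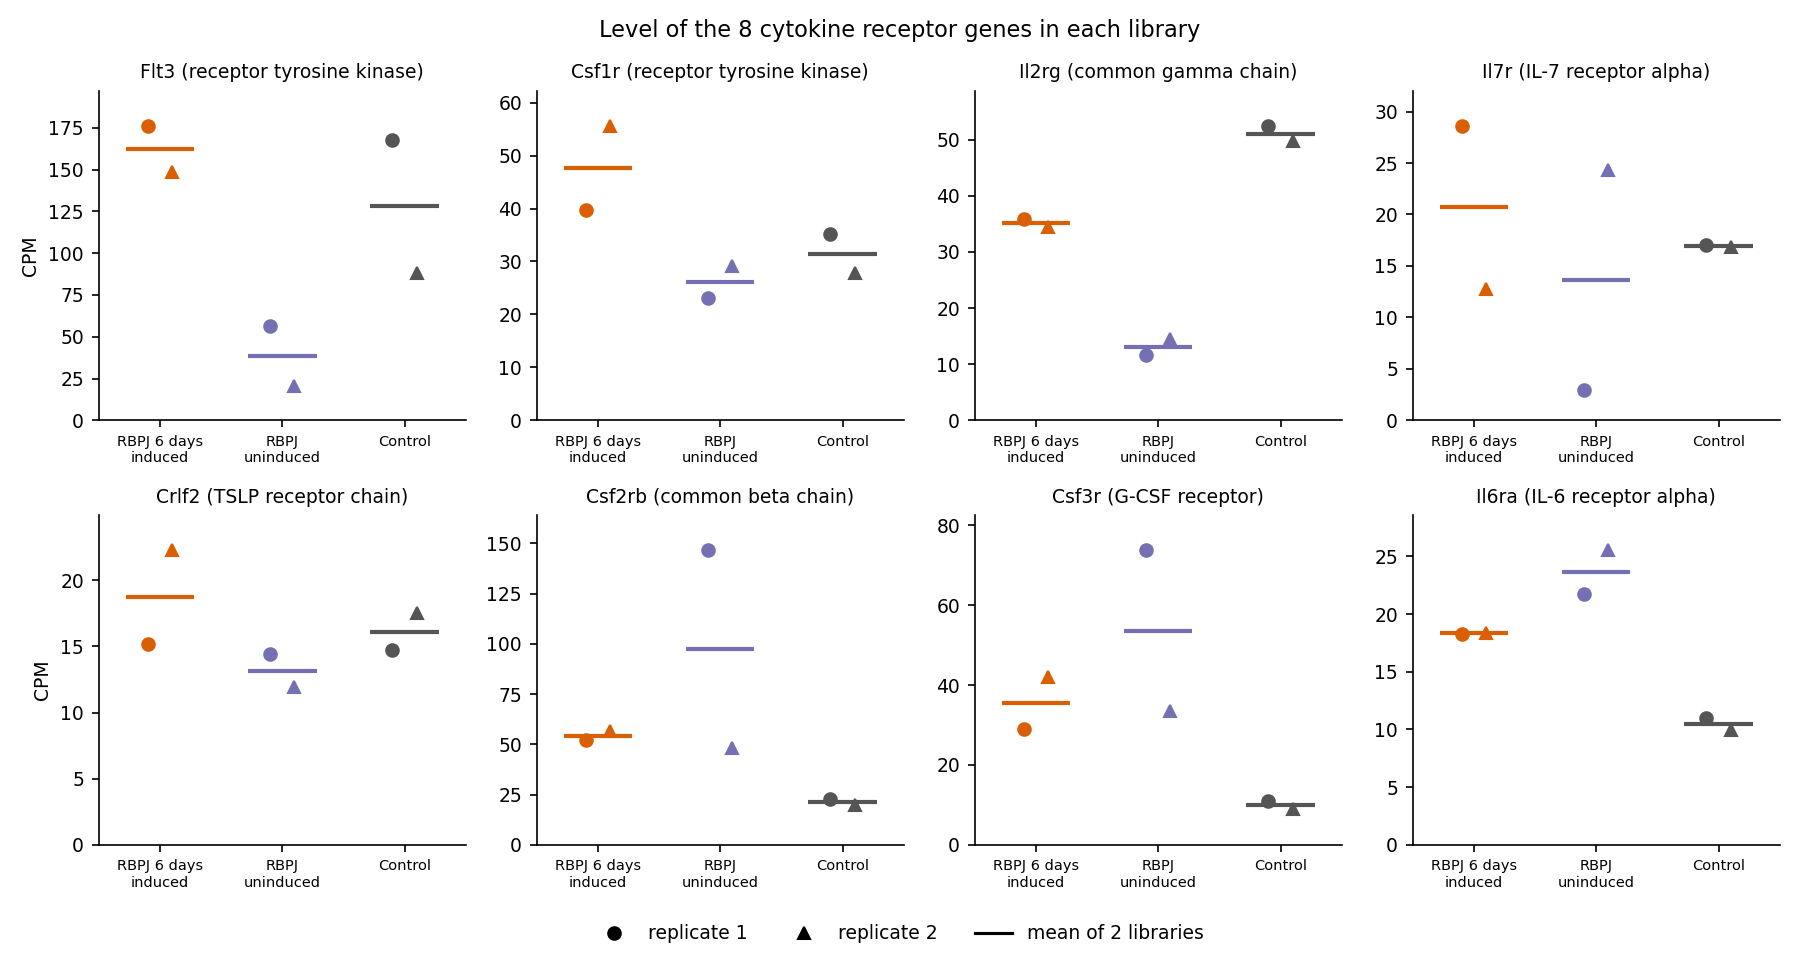
Level of each of the 8 receptor genes in CPM (vertical axes, from 0) in the RBPJ 6 days induced, RBPJ uninduced and Control libraries (horizontal axes), with circles for replicate 1, triangles for replicate 2 and a line at the mean of the 2 libraries. Flt3 and Il2rg were lowest in the uninduced libraries, Csf2rb and Csf3r lowest in the Control libraries, and the 2 uninduced libraries lay far apart for Il7r, at 2.96 and 24.3 CPM, and for Csf2rb, at 147 and 48.1 CPM.

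Flt3 (ENSMUSG00000042817, mm10 chromosome 5, 147330741 to 147400489, minus strand) encodes the receptor for FLT3 ligand. It had 176 and 149 CPM in induced, 56.2 and 20.7 CPM in uninduced and 168 and 88.3 CPM in Control libraries. Both uninduced libraries lay below every other library, and the induced libraries overlapped with Control. The log2 fold change was -1.75 for uninduced over Control (SE 0.440, 95% confidence interval -2.74 to -0.76, adjusted p = 0.0525), a level 0.297 times that of Control, and 2.09 for induced over uninduced (SE 0.444, interval 1.09 to 3.09, adjusted p = 0.0501), a level 4.26 times that of the uninduced libraries. Both values missed the threshold narrowly and passed it under many other settings. Over the 14 alternatives the uninduced-Control fold change ranged from -2.70 to -1.19 and passed under 9, with adjusted p between 5.67e-09 and 0.208, and the induced-uninduced one ranged from 1.55 to 3.03 and passed under 10, with adjusted p between 3.18e-12 and 0.12. Without Control replicate 1, in which Flt3 was 1.90 times as high as in replicate 2, the first was -1.19 (adjusted p = 0.208). Leaving out any other library took it past the threshold, with fold changes of -2.22 without Control replicate 2, -2.70 without uninduced replicate 1, -1.22 without uninduced replicate 2, -1.76 without induced replicate 1 and -1.82 without induced replicate 2. The second passed without any 1 of the 6 libraries. In bulk samples, fewer cells that express a gene and less RNA per cell cannot be told apart.

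Csf1r (ENSMUSG00000024621, chromosome 18, 61100598 to 61132149, plus strand) encodes the M-CSF receptor, known from monocytes and macrophages. It had 39.7 and 55.6 CPM in induced, 23.1 and 29.1 CPM in uninduced and 35.2 and 27.8 CPM in Control libraries. The induced libraries were the highest 2 of the 6, and the uninduced and Control libraries overlapped. Its fold changes were 0.86 for induced over uninduced (SE 0.289, interval 0.21 to 1.51, adjusted p = 0.18) and -0.27 for uninduced over Control (SE 0.289, interval -0.92 to 0.38, adjusted p = 0.719), and neither passed under any alternative.

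Il2rg (ENSMUSG00000031304, chromosome X, 101264378 to 101268255, minus strand) encodes the common gamma chain, and its replicates lay close together. It had 35.9 and 34.4 CPM in induced, 11.6 and 14.5 CPM in uninduced and 52.5 and 49.7 CPM in Control libraries. The 3 groups did not overlap, with uninduced lowest, induced between and Control highest. In uninduced libraries Il2rg fell by 1.96 on the log2 scale relative to Control (SE 0.268, adjusted p = 0.00459), a level 0.257 times that of Control, and this passed under all 14 alternatives, with adjusted p between 3.39e-09 and 0.0407. It rose after induction by 1.42 over uninduced (SE 0.264, adjusted p = 0.0313), to a level 2.68 times as high. That rise had adjusted p = 0.173 without induced replicate 1 and 0.0923 without induced replicate 2, at fold changes of 1.41 and 1.52, and 0.0999 with only the 4 libraries compared. Over all alternatives its adjusted p lay between 0.000169 and 0.173.

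Il7r (ENSMUSG00000003882, chromosome 15, 9505788 to 9530176, minus strand) encodes the alpha chain that joins the common gamma chain to bind IL-7, and CRLF2 to bind TSLP. It had 28.6 and 12.8 CPM in induced, 2.96 and 24.3 CPM in uninduced and 17.1 and 16.8 CPM in Control libraries. The uninduced libraries were the lowest and the second highest of the 6, a ratio of 8.22 between replicates, the largest of any of the 8 genes in any group. The 2.96 CPM of replicate 1 rested on 17 counts. The fold change for uninduced over Control was -0.29 (SE 0.746, interval -1.97 to 1.39, adjusted p = 0.923), and for induced over uninduced 0.58 (SE 0.743, interval -1.09 to 2.25, adjusted p = 0.783). Both turned on which uninduced library was kept. Without uninduced replicate 2 they were -2.53 (adjusted p = 0.0103) and 2.82 (adjusted p = 0.00723), and without uninduced replicate 1 they were 0.47 (adjusted p = 0.619) and -0.17 (adjusted p = 0.905). Over the 14 alternatives the adjusted p lay between 0.0103 and 0.947 in the first comparison and between 0.00723 and 1 in the second, where the fold change was also below 0 without induced replicate 1 (-0.10).

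The B-lineage marker list was among those that moved with Il7r in the uninduced group. Its 9 genes summed to 10.3 and 44.7 CPM in induced, 32.3 and 819 CPM in uninduced and 7.16 and 26.4 CPM in Control libraries, and IL-7 receptor is a known feature of B-cell progenitors. No gene of the list was at 0 in uninduced replicate 2, Igll1 was at 0 in uninduced replicate 1, and Pax5, Igll1 and Ms4a1 were at 0 in induced replicate 1. In Control replicate 1, 2 genes of the list were at 0. Y-linked genes moved the same way, with Kdm5d at 4.52 CPM in uninduced replicate 1 and 40.9 CPM in uninduced replicate 2. The later thymocyte sum was also higher in replicate 2, at 147 against 22.9 CPM, as was the erythroid sum, at 539 against 181 CPM. Il2ra and Il2rb, chains that join the common gamma chain, had 0.522 and 0 CPM in uninduced replicate 1 and 23.5 and 25.1 CPM in replicate 2. The myeloid and mast cell sums were higher in replicate 1. In the induced group the B-lineage sum was higher in replicate 2 and Il7r in replicate 1. The part of any of these in the Il7r values was not tested.

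Crlf2 (ENSMUSG00000033467, chromosome 5, 109554709 to 109558993, minus strand), the TSLP receptor chain, varied least. It had 15.2 and 22.3 CPM in induced, 14.4 and 11.9 CPM in uninduced and 14.7 and 17.5 CPM in Control libraries. The uninduced libraries were the lowest 2 by a small margin. Its fold changes of -0.29 for uninduced over Control (SE 0.361, interval -1.10 to 0.52, adjusted p = 0.775) and 0.51 for induced over uninduced (SE 0.359, interval -0.30 to 1.32, adjusted p = 0.557) did not pass under any alternative.

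Csf2rb (ENSMUSG00000071713, chromosome 15, 78325752 to 78353847, plus strand) had 51.9 and 56.6 CPM in induced, 147 and 48.1 CPM in uninduced and 22.9 and 19.8 CPM in Control libraries. Both uninduced libraries lay above both Control libraries, and replicate 1 was 3.04 times as high as replicate 2. It rose by 2.18 for uninduced over Control (SE 0.442, interval 1.18 to 3.17, adjusted p = 0.0245), a level 4.52 times that of Control. Without uninduced replicate 1 the rise was 1.11 (adjusted p = 0.0163). Without Control replicate 1 it was 2.31 (adjusted p = 0.0585), without Control replicate 2 it was 2.00 (adjusted p = 0.139), and with only the 4 libraries compared it was 2.17 (adjusted p = 0.12). Over all 14 alternatives the adjusted p lay between 1.07e-10 and 0.139. Induced over uninduced was -0.84 (SE 0.421, interval -1.78 to 0.11, adjusted p = 0.39), but -1.42 (adjusted p = 0.00215) without uninduced replicate 2 and 0.23 (adjusted p = 0.77) without uninduced replicate 1, within a range of 0.00215 to 0.912 over the alternatives.

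Csf3r (ENSMUSG00000028859, chromosome 4, 126024550 to 126044440, plus strand), the receptor for the granulocyte factor G-CSF, showed the same arrangement. It had 28.9 and 42.1 CPM in induced, 73.7 and 33.5 CPM in uninduced and 11.0 and 8.84 CPM in Control libraries. Every library of mice that lacked RBPJ, with or without later induction, was higher than both Control libraries, and the induced and uninduced libraries overlapped. It rose by 2.42 for uninduced over Control (SE 0.412, interval 1.50 to 3.35, adjusted p = 0.0114), a level 5.36 times that of Control. The rise was 1.69 (adjusted p = 0.00391) without uninduced replicate 1, 2.20 (adjusted p = 0.0762) without Control replicate 2 and 2.41 (adjusted p = 0.0697) with only the 4 libraries compared, within a range of adjusted p from 1.56e-09 to 0.0762 over the alternatives. Induced over uninduced was -0.59 (SE 0.384, interval -1.46 to 0.27, adjusted p = 0.52), and 0.14 (adjusted p = 0.913) without uninduced replicate 1, with adjusted p from 0.059 to 0.995 over the alternatives.

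Il6ra (ENSMUSG00000027947, chromosome 3, 89864059 to 89913196, minus strand) encodes the alpha chain that binds IL-6 and signals through gp130. It had 18.3 and 18.4 CPM in induced, 21.7 and 25.5 CPM in uninduced and 11.0 and 9.91 CPM in Control libraries. The 3 groups did not overlap, with uninduced highest and Control lowest, and replicates were within 1.17 times of each other in every group. The fold change for uninduced over Control was 1.18 (SE 0.325, interval 0.45 to 1.91, adjusted p = 0.0732), which passed under 2 of 14 alternatives, without uninduced replicate 1 (1.23, adjusted p = 0.0422) and by DESeq2 (1.11, adjusted p = 0.0399), and had an adjusted p of up to 0.347 under the rest. Induced over uninduced was -0.37 (SE 0.317, interval -1.08 to 0.35, adjusted p = 0.649).

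Myeloid and mast cell marker lists moved with Csf2rb and Csf3r. The 12 myeloid genes summed to 782 and 1669 CPM in induced, 4397 and 3374 CPM in uninduced and 616 and 538 CPM in Control libraries, and 5 of the 10 tested were higher in uninduced than in Control libraries. The 8 mast cell and basophil genes summed to 953 and 974 CPM in induced, 1516 and 969 CPM in uninduced and 598 and 441 CPM in Control libraries, and 5 of the 7 tested were higher in uninduced libraries. Of all tested genes, 2.49% were higher in uninduced than in Control libraries. Without Kit, which DN1a/b cells carry too, the other 7 summed to 335 and 343 CPM in induced, 885 and 571 CPM in uninduced and 83.2 and 69.2 CPM in Control libraries. For both lists uninduced replicate 1 was the highest library, as it was for Csf2rb and Csf3r. S100a8 and S100a9, abundant in mature neutrophils, were both at 0 in induced replicate 1 and Control replicate 1, and S100a9 was at 0 in uninduced replicate 1 as well. In Control replicate 2, 3 genes of the myeloid list were at 0, and in induced replicate 2 it was 1. Fcer1a was at 0 in both Control libraries and in induced replicate 2. The part of these cells in the 2 receptor results was not tested.

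The T-lineage list moved with Il2rg and Flt3. Its 10 genes summed to 406 and 479 CPM in induced, 44.2 and 68.0 CPM in uninduced and 706 and 1029 CPM in Control libraries, in the group order of Il2rg. Of its 8 tested genes, 4 were lower in uninduced than in Control libraries, beside 2.93% of all tested genes. After induction 4 were higher than in uninduced libraries, beside 1.55% of all tested genes. Ptcra was at 0 in both uninduced libraries and Cd3d in uninduced replicate 1 and induced replicate 2. Its part in the 2 receptor results was not tested. The dendritic cell list holds Flt3 itself, and its other 8 genes summed to 89.1 and 106 CPM in induced, 55.1 and 134 CPM in uninduced and 55.9 and 47.8 CPM in Control libraries. Without Flt3 the uninduced and Control libraries overlapped. Of the 8 tested genes of the whole list 1, Irf8, was higher in uninduced than in Control libraries and 0 were lower by edgeR. Of all tested genes, 2.49% were higher and 2.93% lower. At an unadjusted p under 0.05 there were 4 of the 8, beside 3419 of all 18174 tested genes. By DESeq2 2 were higher and 1 lower, the lower one being Flt3. Over all genes DESeq2 called 814 higher and 1045 lower in this comparison.

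**Figure D2:**
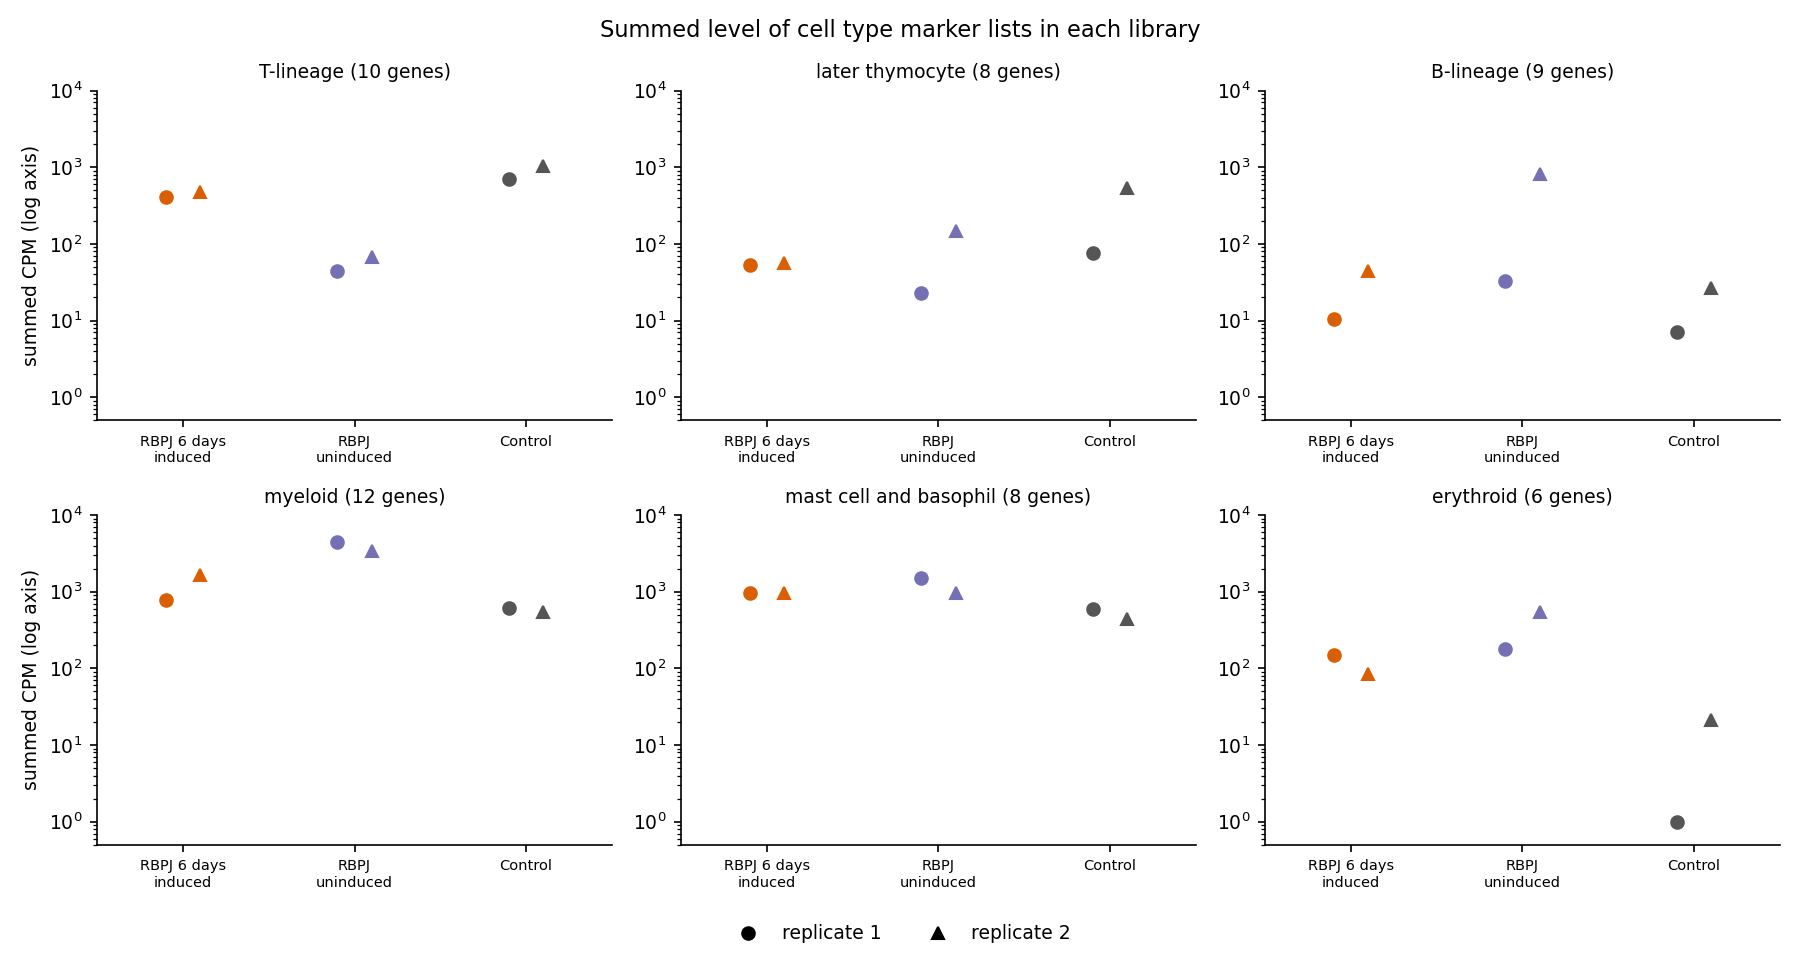
Summed CPM of 6 cell type marker lists (vertical axes, log scale) in the RBPJ 6 days induced, RBPJ uninduced and Control libraries (horizontal axes), with circles for replicate 1 and triangles for replicate 2. The T-lineage sum was lowest in the 2 uninduced libraries, the myeloid sum highest in them, and the B-lineage sum reached 819 CPM in uninduced replicate 2 alone. The mast cell list includes Kit and the erythroid list Epor.

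None of the 8 genes differed between RBPJ 6 days induced and Control libraries by edgeR, where 0.187% of all tested genes were higher and 0 were lower. At an unadjusted p under 0.05, 3 of the 8 passed, beside 5.17% of all tested genes. By DESeq2 1 was higher, Csf3r (1.77, adjusted p = 0.0148), beside 1.39% of the 12888 genes to which it gave an adjusted p. The fold changes were 1.83 for Csf3r (SE 0.405, interval 0.92 to 2.74, adjusted p = 0.176), 1.34 for Csf2rb (SE 0.433, interval 0.37 to 2.31, adjusted p = 0.571) and 0.81 for Il6ra (SE 0.323, interval 0.08 to 1.53, adjusted p = 0.852). For these 3 genes both induced libraries lay above both Control libraries. Csf3r and Csf2rb passed the threshold when either uninduced library was left out, which leaves their induced and Control values untouched but changes the estimate of spread: for Csf3r the adjusted p was then 0.0023 without uninduced replicate 1 and 0.00163 without uninduced replicate 2, and for Csf2rb 0.00455 and 0.0025 in the same order. Csf3r also passed without induced replicate 1 (2.10, adjusted p = 0.0345), and both passed with only the 4 libraries compared (adjusted p = 0.0277 for Csf3r and 0.0236 for Csf2rb). Over all alternatives the adjusted p of Csf3r lay between 2.99e-05 and 0.717, and that of Csf2rb between 0.000771 and 1. Il2rg was -0.54 (interval -1.11 to 0.03), Flt3 0.34 (interval -0.61 to 1.29), Csf1r 0.59 (interval -0.05 to 1.24), Il7r 0.29 (interval -1.37 to 1.95) and Crlf2 0.22 (interval -0.58 to 1.02), each with an adjusted p of 1. Induced and Control libraries overlapped for Flt3, Il7r and Crlf2. The intervals still hold log2 fold changes of up to 1.29 for Flt3 and from -1.37 to 1.95 for Il7r.

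**Figure D3:**
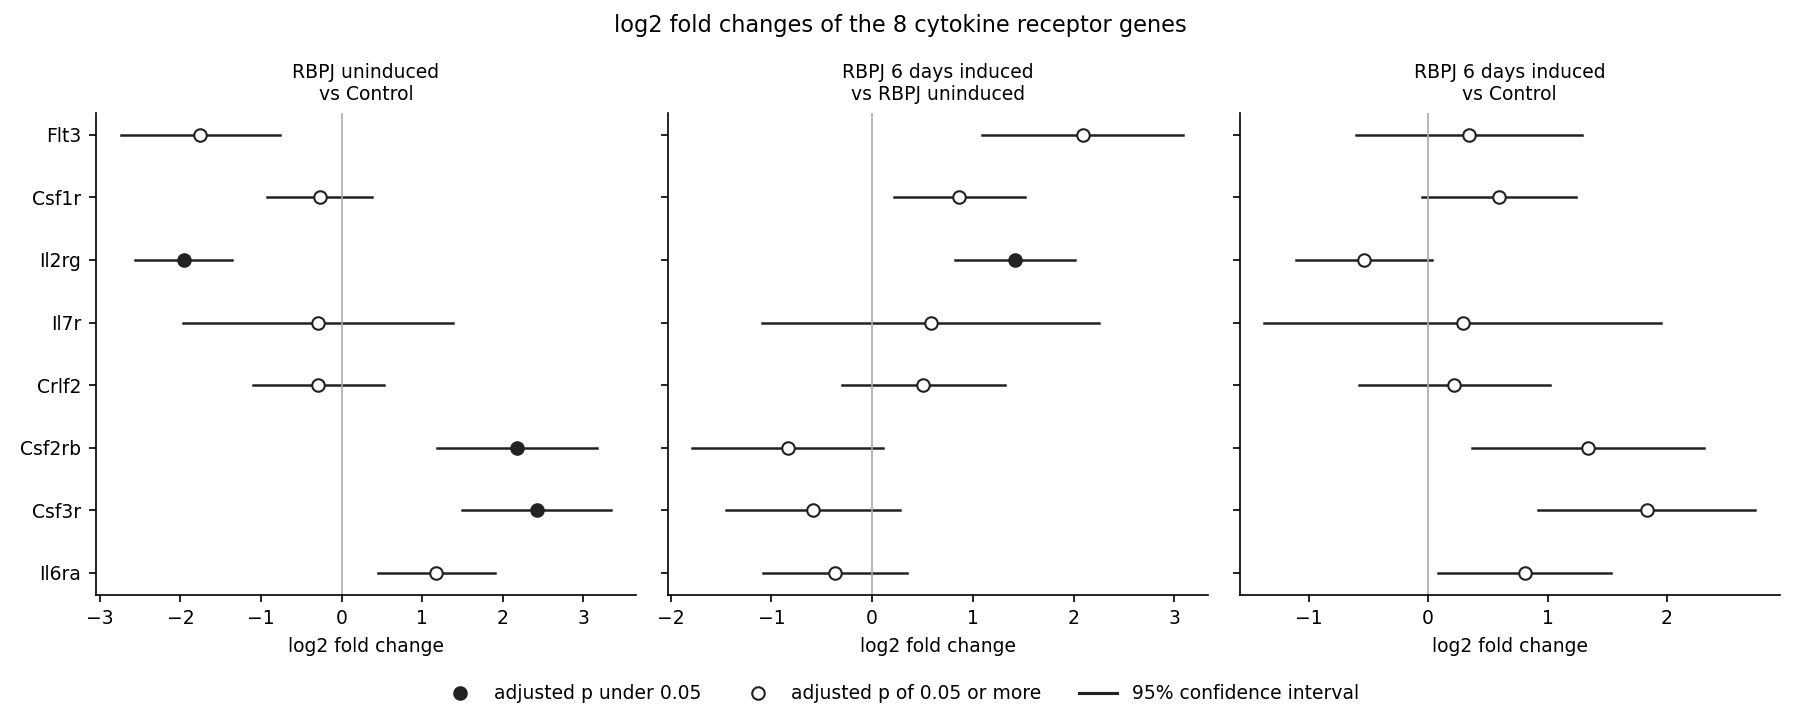
log2 fold changes of the 8 receptor genes (horizontal axes) with 95% confidence intervals for RBPJ uninduced over Control, RBPJ 6 days induced over RBPJ uninduced and RBPJ 6 days induced over Control; filled points have an adjusted p under 0.05. Filled points are Il2rg at -1.96, Csf2rb at 2.18 and Csf3r at 2.42 on the left and Il2rg at 1.42 in the middle, and there is none on the right.

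By library values alone, 6 of the 8 genes had groups that did not overlap between uninduced and Control libraries, 3 higher and 3 lower, beside 44.3% of all tested genes, 22.1% higher and 22.2% lower. Between induced and uninduced libraries 5 of the 8 did not overlap, 4 higher and 1 lower, beside 46.6%, 24.8% higher and 21.8% lower. Between induced and Control libraries it was again 5 of the 8, 4 higher and 1 lower, beside 37.5%, 20.8% higher and 16.8% lower. With 2 libraries a group such a separation is common among all genes. The median fold change of the 8 was -0.28 for uninduced over Control, 0.54 for induced over uninduced and 0.47 for induced over Control, against -0.02, -0.03 and -0.02 over all tested genes.

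Replicates of the 8 genes differed most in the uninduced group. The higher replicate was 1.29 times the lower at the median of the 8 genes in induced, 1.73 times in uninduced and 1.17 times in Control libraries. The largest ratios were 8.22 for Il7r, 3.04 for Csf2rb, 2.71 for Flt3 and 2.20 for Csf3r, all in the uninduced group. Replicate 2 was the higher for Il7r and replicate 1 for the other 3.

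Divided by the length of their exons, the 8 genes stood in a different order by mean in each group. In induced libraries Flt3 led with 28.5 and 24.1 CPM per kb, above Il2rg at 15.1 and 14.4 CPM per kb, and Il6ra was last at 2.12 CPM per kb in both. In uninduced libraries Csf3r had 20.4 and 9.30 CPM per kb and Csf2rb 20.1 and 6.62 CPM per kb, ahead of Crlf2, Flt3, Il2rg, Csf1r, Il7r and Il6ra in that order by mean, but the ranges of all neighbours in this order overlapped. In Control libraries Il2rg, at 22.0 and 20.8 CPM per kb, and Flt3, at 27.2 and 14.3 CPM per kb, overlapped and stood above Crlf2, Csf1r and Il7r, and Csf2rb and Csf3r overlapped with each other just above Il6ra. In the induced group Il2rg and Crlf2, Crlf2 and Csf3r, Csf3r and Csf1r, and Csf1r and Csf2rb did not differ beyond their ranges. Since these ranges overlap, the order by mean does not hold in every single library.

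**Figure D4:**
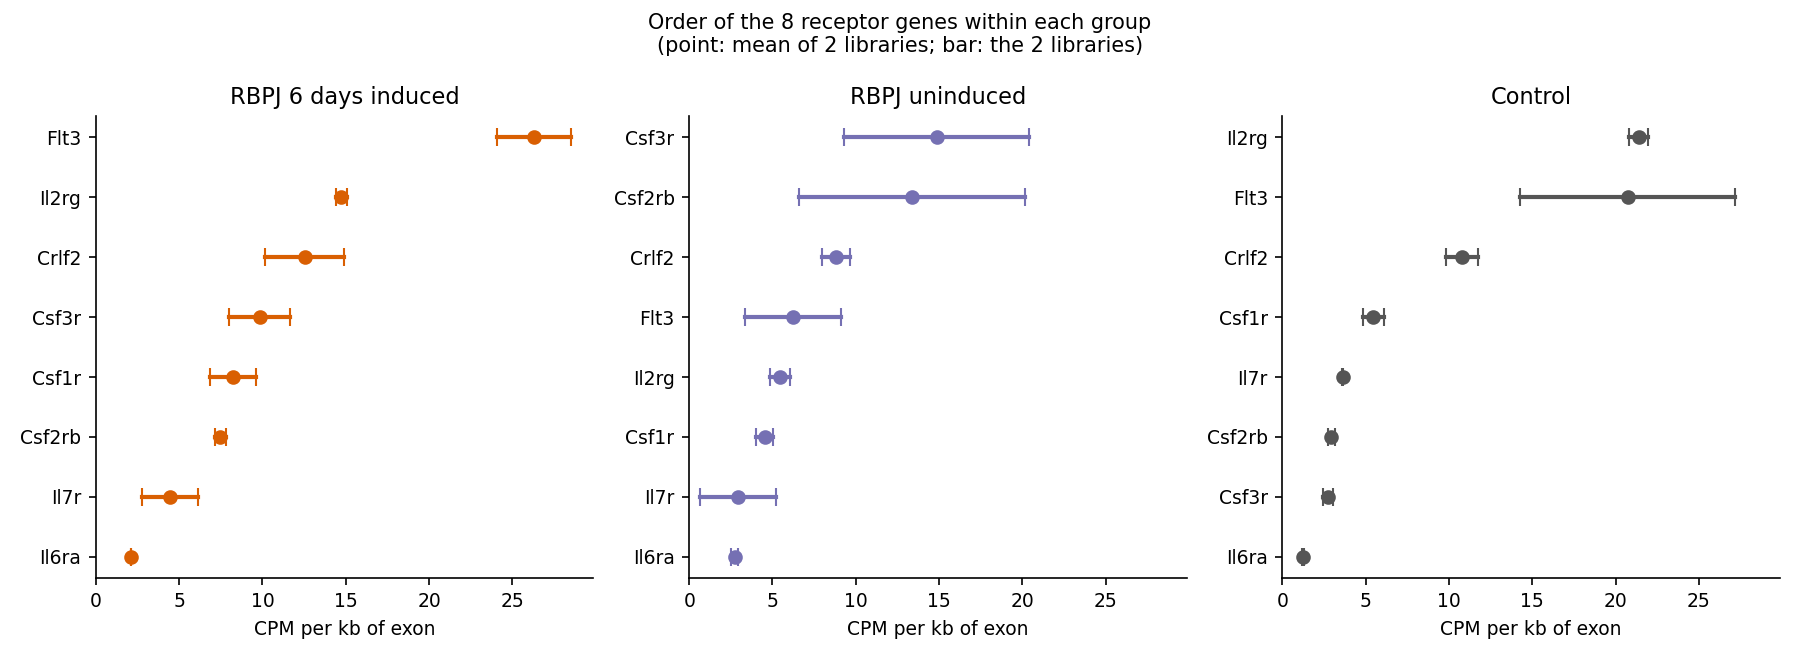
Level of each receptor gene in CPM per kb of exon (horizontal axes, from 0), ordered by mean within the RBPJ 6 days induced, RBPJ uninduced and Control groups, with a point at the mean and a bar from the lower to the higher of the 2 libraries. Flt3 stands clear of the rest in the induced group at a mean of 26.3 CPM per kb, and every bar overlaps with the next in the uninduced group.

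Promoter sequence from RefSeq was matched for 6 of the 8 genes, all but Csf1r and Csf2rb. The window of Il7r lay wholly inside its GENCODE gene, so the other 5 are described, searched on both strands over the 250 bases before the start in the RefSeq table. That start differs from the GENCODE gene start for Csf3r, where 109 of the 250 bases lie inside the GENCODE gene. The letters searched were TGGGAA, the core of the RBPJ site, GGAAGT, an ETS site core, and TTGCNNAA, a C/EBP motif. The promoters of Il2rg, Crlf2, Flt3 and Csf3r are shown because these genes gave the clearest fall, the flattest values, the near-threshold fall and the clearest rise in uninduced libraries. Each is written 5′ to 3′ on the gene's strand from GRCm38.p6, with matches to TGGGAA or GGAAGT in capitals (ACTTCC is GGAAGT read from the other strand). They lie at chrX:101268256-101268505 (minus), chr5:109558994-109559243 (minus), chr5:147400490-147400739 (minus) and chr4:126024409-126024658 (plus).
Il2rg: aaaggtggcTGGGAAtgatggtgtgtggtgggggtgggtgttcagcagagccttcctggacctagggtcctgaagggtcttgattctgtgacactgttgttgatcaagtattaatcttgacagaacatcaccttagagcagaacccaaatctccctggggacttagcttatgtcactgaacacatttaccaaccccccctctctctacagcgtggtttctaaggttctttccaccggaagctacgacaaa
Crlf2: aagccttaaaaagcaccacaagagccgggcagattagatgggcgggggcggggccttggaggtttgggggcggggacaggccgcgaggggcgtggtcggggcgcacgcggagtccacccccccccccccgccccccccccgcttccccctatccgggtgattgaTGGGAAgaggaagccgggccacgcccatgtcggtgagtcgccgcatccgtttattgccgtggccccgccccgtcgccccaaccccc
Flt3: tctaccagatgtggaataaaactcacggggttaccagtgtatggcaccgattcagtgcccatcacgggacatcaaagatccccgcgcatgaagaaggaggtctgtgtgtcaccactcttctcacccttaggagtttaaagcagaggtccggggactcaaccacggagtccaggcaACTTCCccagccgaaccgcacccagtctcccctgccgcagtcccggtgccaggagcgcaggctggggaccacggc
Csf3r: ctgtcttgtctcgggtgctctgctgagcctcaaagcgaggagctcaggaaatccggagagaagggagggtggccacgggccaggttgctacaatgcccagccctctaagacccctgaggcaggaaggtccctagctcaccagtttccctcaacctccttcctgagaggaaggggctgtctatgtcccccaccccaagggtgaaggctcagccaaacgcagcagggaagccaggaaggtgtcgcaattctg

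TGGGAA occurred 1 time in the Il2rg promoter, 241 bases before the start, 1 time in that of Crlf2, 86 bases before it, and 1 time in that of Il6ra, 14 bases before it, where it overlaps a GGAAGT. Of 32851 promoters of the same length, 21.6% hold it. The gene that fell most clearly and the gene with the flattest values thus both carry a match. GGAAGT occurred in Flt3, 75 bases before the start, and 2 times in Il6ra, and 19.7% of all promoters hold it. TTGCNNAA occurred in none of the 5, and 9.56% of all promoters hold it. A match is a description of letters, and the Csf3r window holds none of the 3.

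The chains that pair with these receptors moved in part. Of 11 partner chains tested, 1 was higher and 2 were lower in uninduced than in Control libraries, with a median fold change of 0.31. Over all tested genes 2.49% were higher and 2.93% lower, which holds for the lists below too. Csf2rb2, the mouse beta chain specific to IL-3 and a near copy of Csf2rb, rose with Csf2rb: it had 11.3 and 7.92 CPM in induced, 29.2 and 17.5 CPM in uninduced and 3.05 and 2.48 CPM in Control libraries, a fold change of 3.06 (SE 0.469, adjusted p = 0.00744). Both uninduced libraries lay above all others. The alpha chains for GM-CSF and IL-3 did not pass. Csf2ra had 19.7 and 37.3 CPM in induced, 24.2 and 36.0 CPM in uninduced and 27.0 and 11.5 CPM in Control libraries (0.63 for uninduced over Control, SE 0.461, adjusted p = 0.543). Il3ra had 10.5 and 10.2 CPM in induced, 13.0 and 8.25 CPM in uninduced and 6.02 and 4.95 CPM in Control libraries (0.94, SE 0.463, adjusted p = 0.322). The beta chain genes were called in uninduced libraries and these alpha chain genes were not, but the difference between them was not tested.

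Il6st, which encodes gp130, the signalling partner of the IL-6 receptor, had 68.0 and 61.6 CPM in induced, 42.4 and 23.7 CPM in uninduced and 122 and 96.6 CPM in Control libraries. It fell by 1.73 for uninduced over Control (SE 0.292, adjusted p = 0.0109), while Il6ra had a fold change of 1.18. The 2 chains of the IL-6 receptor thus had fold changes of opposite sign. Il4ra, the alpha chain that joins the common gamma chain to bind IL-4, had 69.9 and 90.01 CPM in induced, 48.2 and 35.3 CPM in uninduced and 98.8 and 134 CPM in Control libraries, and fell by 1.48 (SE 0.257, adjusted p = 0.0124), in the direction of Il2rg. Without Control replicate 2 the adjusted p was 0.052 for Csf2rb2 (2.84) and 0.0541 for Il4ra (-1.34), and with only the 4 libraries compared it was 0.0745 for Il6st and 0.0715 for Il4ra. Over the 14 alternatives the adjusted p reached from 2.58e-06 to 0.052 for Csf2rb2, from 8.90e-08 to 0.0745 for Il6st and from 7.50e-06 to 0.0715 for Il4ra. By edgeR 0 of the 11 partner chains passed for induced over uninduced, with 4 at an unadjusted p under 0.05, and 0 for induced over Control, with 2. Of all 18174 tested genes, 2807 and 940 had such an unadjusted p in the same order. For induced over uninduced Il4ra was at 0.94 (SE 0.254, adjusted p = 0.107), Il6st at 0.98 (SE 0.288, adjusted p = 0.134) and Csf2rb2 at -1.28 (SE 0.429, adjusted p = 0.181). DESeq2 called Il4ra (0.93, adjusted p = 0.027) and Il6st (0.96, adjusted p = 0.0467) higher in that comparison and 0 partner chains in induced over Control. Over all genes it called 746 higher and 492 lower in the first, and 179 and 49 in the second. Il4ra and Il6st also passed without a filter (adjusted p = 0.0168 and 0.0143) and without uninduced replicate 1 (adjusted p = 0.0093 and 0.00295). Without uninduced replicate 2, Csf2rb2 passed for induced over uninduced (-1.59, adjusted p = 0.0462) and for induced over Control (1.77, adjusted p = 0.0422). For induced over uninduced the adjusted p over the alternatives reached 0.533 for Il4ra, 0.464 for Il6st and 0.961 for Csf2rb2, and for induced over Control 1 for Csf2rb2.

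The ligands were scarce in these cells, which receive most of them from stroma and other cells. Of 9 ligand genes analysed, 3 passed the filter on low counts, Il7, Csf1 and Il6. In each comparison 0 of the 3 passed by edgeR, with 0 at an unadjusted p under 0.05 and 0 by DESeq2. Csf1 was the highest, with 7.51 and 11.2 CPM in induced, 4.69 and 15.6 CPM in uninduced and 2.36 and 6.90 CPM in Control libraries. Il3 and Il5 had 0 counts in all 6 libraries, which allows up to 3 counts per library, and Flt3l was not analysed here.

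Among 8 other receptors of progenitors, 2 were higher and 2 lower in uninduced than in Control libraries. Notch1 had 519.7 and 484 CPM in induced, 97.7 and 68.8 CPM in uninduced and 924 and 782 CPM in Control libraries, and Il18r1, the IL-18 receptor, had 57.2 and 38.0 CPM, 3.82 and 7.69 CPM, and 29.9 and 17.9 CPM in the same groups. Both fell in uninduced libraries (Notch1 -3.36, SE 0.219, adjusted p = 0.000186, and Il18r1 -2.04, SE 0.433, adjusted p = 0.0293). Both rose after induction (Notch1 2.59, SE 0.213, adjusted p = 0.000951, and Il18r1 3.02, SE 0.443, adjusted p = 0.0129). For induced over Control Notch1 was -0.77 (SE 0.200, adjusted p = 0.313), and DESeq2 called it lower, among 49 genes in all. Il1rl1, the IL-33 receptor, had 44.3 and 25.5 CPM in induced, 68.5 and 79.0 CPM in uninduced and 0.990 and 2.48 CPM in Control libraries. It was higher than Control both without induction (5.55, SE 0.482, adjusted p = 0.000568) and after it (4.47, SE 0.469, adjusted p = 0.00741), and both comparisons use the same Control libraries. Epor, the erythropoietin receptor, was higher in uninduced libraries (4.54, SE 0.913, adjusted p = 0.0233), with 11.1 and 29.5 CPM against 0.228 and 1.77 CPM in Control libraries, and the other 5 genes of the erythroid list summed to 142 and 79.8 CPM in induced, 169.9 and 509 CPM in uninduced and 0.761 and 19.3 CPM in Control libraries. Single libraries moved these values: without Control replicate 1, Il18r1 was -1.57 (adjusted p = 0.151), Epor 3.56 (adjusted p = 0.0679) and Il1rl1 4.92 (adjusted p = 0.00086) for uninduced over Control, and without Control replicate 2 Epor was 6.30 (adjusted p = 0.0149). Without uninduced replicate 2, Epor was 3.62 (adjusted p = 0.0262) and Il18r1 was -2.68 (adjusted p = 0.00193), or 3.65 (adjusted p = 0.000355) for induced over uninduced. For induced over Control, Il1rl1 was 3.86 (adjusted p = 0.0155) without Control replicate 1 and 5.09 (adjusted p = 0.012) without Control replicate 2. With only the 4 libraries compared, the adjusted p was 0.102 for Epor and 0.119 for Il18r1 in uninduced over Control and 0.0563 for Il18r1 in induced over uninduced. For uninduced over Control it ranged from 4.03e-08 to 0.102 for Epor and from 5.67e-06 to 0.151 for Il18r1 over the alternatives.

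Downstream of the JAK-linked receptors, 4 genes known to respond to STAT5 or STAT3, Pim1, Cish, Socs3 and Mcl1, were lower in uninduced than in Control libraries, and Stat5a was higher. Pim1, a survival kinase, had 197 and 195 CPM in induced, 84.7 and 66.0 CPM in uninduced and 358 and 379 CPM in Control libraries. The 3 groups did not overlap, in the order of Il2rg. Pim1 fell by 2.29 for uninduced over Control (SE 0.190, adjusted p = 0.000461) and rose by 1.38 after induction (SE 0.185, adjusted p = 0.00801). For induced over Control Pim1 was -0.91 (SE 0.181, adjusted p = 0.123). It was called lower there by DESeq2 (-0.98, adjusted p = 9.11e-05) and with only the 4 libraries compared (-0.96, adjusted p = 0.013). Cish, which encodes a feedback inhibitor of STAT5 signalling, had 18.1 and 24.1 CPM in induced, 1.91 and 11.3 CPM in uninduced and 35.9 and 75.0 CPM in Control libraries. It fell by 3.02 for uninduced over Control (SE 0.662, adjusted p = 0.033). For induced over Control Cish was -1.39 (SE 0.611, adjusted p = 0.948), or -1.33 (adjusted p = 0.0236) without a filter. For uninduced over Control Socs3, an inhibitor of gp130 signalling, fell by 1.39 (SE 0.299, adjusted p = 0.0303), and Mcl1, a survival factor of the BCL2 family, fell by 0.92 (SE 0.188, adjusted p = 0.025). Both uninduced libraries lay below both Control libraries for each of the 4, as they did for 22.2% of all tested genes. The 4 were named for their calls in uninduced over Control, so this separation adds no support. The list of feedback inhibitors had 2 of 11 genes lower and none higher in this comparison. The list of STAT5-linked survival and growth genes had 2 of 8 lower and none higher. Over all tested genes 2.93% were lower and 2.49% higher. The median fold changes of the lists were -0.79 and -0.33. A fold change above 0 was seen for 3 of the 11 and 3 of the 8 genes. Among them were Socs2 (1.10, SE 0.713, adjusted p = 0.474) and Bcl2 (0.85, SE 0.355, adjusted p = 0.231).

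Of 11 JAK and STAT genes 1 rose and 1 fell in uninduced relative to Control libraries. Stat5a, with 91.0 and 95.7 CPM in induced, 115 and 128 CPM in uninduced and 65.0 and 55.7 CPM in Control libraries, rose by 1.01 (SE 0.194, adjusted p = 0.0198). Stat3, with 167 and 222 CPM in induced, 101 and 74.8 CPM in uninduced and 177 and 194 CPM in Control libraries, fell by 1.08 (SE 0.220, adjusted p = 0.0244) and rose by 1.15 after induction (SE 0.220, adjusted p = 0.0349). By edgeR 0 of 9 adaptor genes of receptor tyrosine kinases passed in any comparison. At an unadjusted p under 0.05 there were 3 for uninduced over Control, 2 for induced over uninduced and 0 for induced over Control. Of all 18174 tested genes, 3419, 2807 and 940 had such an unadjusted p in the same order. The smallest adjusted p of the 9 adaptor genes was 0.0855 for Cbl (-0.65 for uninduced over Control). DESeq2 called 2 of them in this comparison and 0 in the others, Cbl and Pik3cd being lower in uninduced libraries (adjusted p = 0.00768 for Cbl and 0.0276 for Pik3cd, which over all alternatives reached 0.239 and 0.659). Over all genes DESeq2 called 814 higher and 1045 lower for uninduced over Control. Single libraries moved several of the edgeR calls given above. Without Control replicate 2 the adjusted p for uninduced over Control was 0.153 for Stat5a (0.81), 0.0743 for Stat3, 0.153 for Socs3 (-1.20), 0.12 for Cish (-2.52) and 0.0652 for Mcl1. Without Control replicate 1 the adjusted p was 0.0635 for Stat5a, 0.0612 for Stat3 and 0.0535 for Mcl1, and Cish was -2.32 (adjusted p = 0.00143) without uninduced replicate 1 and -4.84 (adjusted p = 4.21e-05) without uninduced replicate 2. With only the 4 libraries compared none of these 5 passed (adjusted p from 0.0923 for Stat5a to 0.129 for Cish), and with plain library totals Stat5a (0.0536), Stat3 (0.057) and Socs3 (0.0521) did not. The largest adjusted p over the alternatives was 0.153 for Stat5a, 0.0923 for Stat3, 0.153 for Socs3, 0.129 for Cish and 0.101 for Mcl1, and the smallest was at most 0.00133 for each of them. The rise of Stat3 after induction had adjusted p = 0.185 without induced replicate 2, 0.103 with plain library totals and 0.108 with only the 4 libraries compared, and that of Pim1 had 0.0609 with only those 4.

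**Figure D5:**
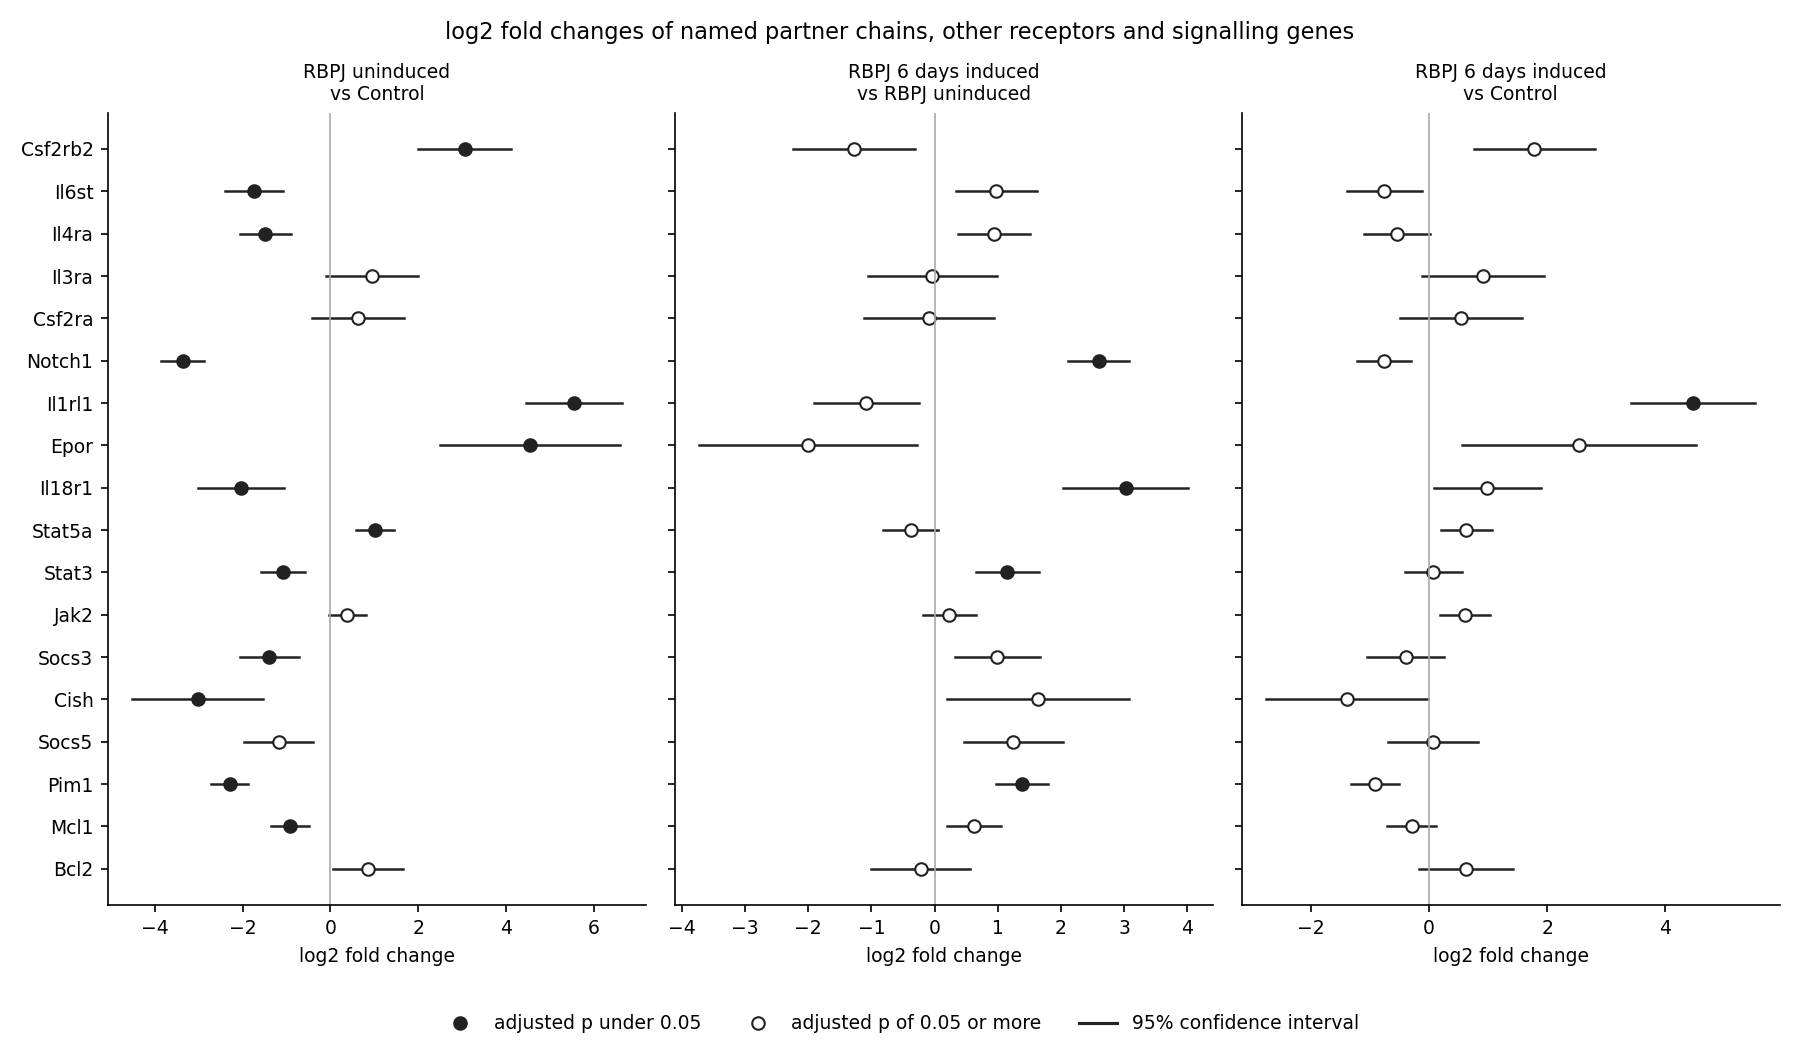
log2 fold changes (horizontal axes) with 95% confidence intervals of named partner chains, other progenitor receptors, JAK and STAT genes, feedback inhibitors and survival genes for RBPJ uninduced over Control, RBPJ 6 days induced over RBPJ uninduced and RBPJ 6 days induced over Control; filled points have an adjusted p under 0.05. Notch1, Il18r1, Stat3 and Pim1 are filled on opposite sides of 0 in the left and middle panels, and Il1rl1 is the 1 filled point on the right.

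The genes whose profiles were most like each receptor gene were sought among 7211 protein-coding genes whose average log2 CPM was 4 or more, by the root mean square difference between centred log2 CPM values over the 6 libraries. The points share libraries and depth, so the values describe these libraries only. Il2rg was nearest to Itga9 (0.06, Pearson r = 0.997), Dok2 (0.07, r = 0.999) and Abcg1 (0.10, r = 0.994). Flt3 was nearest to Cd27, a receptor of the TNF family on lymphoid progenitors (0.18, r = 0.987), which averaged 101 CPM in induced, 27.6 CPM in uninduced and 102 CPM in Control libraries. Csf2rb was nearest to Cpa3, the mast cell carboxypeptidase (0.20, r = 0.977), which averaged 126 CPM in induced, 231 CPM in uninduced and 51.8 CPM in Control libraries, and next to Itga6 (0.25) and Csf3r (0.27, r = 0.971). Csf3r was nearest to Muc13 (0.18, r = 0.986), Cpa3 (0.24) and the megakaryocyte integrin Itga2b (0.25). Il6ra was nearest to Tm7sf3 (0.06), Csf1r to Ikbkg (0.07) and Crlf2, with the smallest spread, to Mfap3 (0.10). Il7r had the most distant neighbours, and 2 of its nearest 3, Kdm5d (0.36) and Uty (0.38), lie on the Y chromosome. Kdm5d, Uty, Ddx3y and Eif2s3y were at 3.30 to 8.69 CPM in uninduced replicate 1 and at 26.5 to 62.2 CPM in uninduced replicate 2, while Xist was at 2067 CPM in replicate 1 and 497 CPM in replicate 2. All 6 libraries held counts of both Xist and these Y-linked genes.

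Some counts may be shared with other genes. The longest Csf2rb transcript matches Csf2rb2 with 95.1% identity over 3108 bases, so reads of the 2 beta chain genes may be exchanged, and their rises are not independent of each other. Csf3r matches the processed pseudogene AC105061.2 on chromosome 19 with 96.8% identity over 1518 bases, and counts of that pseudogene were not analysed here. Il2rg shares 730 bases with Gm20489 on the same strand, which had 0 counts in every library. Csf1r overlaps Hmgxb3 on the opposite strand by 873 bases, and Hmgxb3 had 159 to 624 counts. Flt3 overlaps the antisense gene Gm26597, with 8 to 35 counts, and Il6ra the antisense gene Gm42809, with 0 to 5. Whether counting used strand is not known from the labels, so reads of opposite strands cannot be told apart.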

How the data were processed

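The authors deposited 1 file per library with whole-number counts for 47729 Ensembl genes. Tools named per the submitters' processing notes are HISAT2, StringTie and HTSeq, with the build mm10, but no version or role, and the annotation release and strand setting were not given in the sources used here. Names, exon lengths and coordinates come from GENCODE M21 on GRCm38, the build of mm10, in which 47310 IDs matched. Copies were sought by aligning member transcripts to all GENCODE M21 transcripts.

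The main test was edgeR 4.0.16 in R 4.3.3. The filter filterByExpr, given the groups, a minimum count of 10 and a minimum total of 15, kept 18174 genes. TMM gave factors from 0.824 to 1.13, and 1 quasi-likelihood fit of all 6 libraries with a mean per group had 3 residual degrees of freedom before the spread was shared across genes. P-values were adjusted by Benjamini-Hochberg over all tested genes, with a threshold of 0.05. CPM are on TMM-scaled totals of the tested genes. A standard error is the fold change over the square root of F, and a 95% interval is that error times a t quantile. Log2 CPM for profile likeness used a prior count of 2. Chi-square per degree of freedom between replicates was 16.4 in induced, 54.1 in uninduced and 20.6 in Control libraries, so none was a duplicate, and the assumption of 1 shared spread is in doubt. A floor of 3 counts for a count of 0 covers counting error only.

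The receptor genes and all gene lists were chosen with earlier results of these data known. All 8 receptor genes are named. From each pathway list up to 4 genes past the threshold with the smallest p are named, or up to 2 where none passed, and Csf2rb2, Csf2ra, Il3ra and Il6st always. Cell type marker lists are given by counts and sums, with some of the genes at 0 named. Some genes of lists with no call are not described. Kit, Irf8, Il2ra, Il2rb, Socs2, Ddx3y, Eif2s3y and Xist were named after their values were seen, as was Bcl2 for uninduced over Control. The sums without Flt3, Kit or Epor were chosen then too. Alternatives were DESeq2 1.42.0, other size factors and filters, fitting the 4 compared libraries alone, a replicate block, leaving out each library and, chosen after seeing the data, TMM before the filter.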

Additional observations from a re-analysis of the deposited data

How the results depend on the processing

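Il2rg was below Control in uninduced libraries under all 14 alternatives, and this call did not change under any. In the same comparison Csf2rb lost its call without either Control library, Csf3r without Control replicate 2, and both with only the 4 compared libraries fitted. The cause of these and the changes below was not tested. Over all alternatives, 286 receptor fold changes kept direction and side of the threshold, 34 passed it newly, 8 lost it and 8 changed sign. The Il7r value of uninduced replicate 1 rests on 17 counts. Plain library totals shifted the median of all genes by -0.11 in uninduced over Control, and no other setting shifted any median by over 0.1. A setting that leaves a group with 1 library assumes that it varies like the others. Calls among the genes of the other lists moved too. With only the 4 compared libraries fitted, those in uninduced over Control went from 19 to 13 higher and from 16 to 6 lower. In induced over uninduced they went from 9 to 3 higher and from 2 to 0 lower. In induced over Control they went from 4 to 9 higher and from 0 to 3 lower.

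Receptor genes called higher in uninduced over Control numbered 2, with 0 when only the 4 compared libraries were fitted and 0 to 3 with a library left out. Those called lower numbered 1, with 2 without a filter, by TMM before the filter (added after seeing the data) and by DESeq2, and 1 to 3 with a library left out. For induced over uninduced, 1 was higher, with 2 without a filter, by TMM before the filter and by DESeq2, 0 with the 4 libraries and 1 to 3 with a library left out, and 0 were lower, with 0 to 1. For induced over Control, 0 were higher, with 2 without a filter, 1 by DESeq2, 2 with the 4 libraries and 0 to 2 with a library left out.

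Over all genes, uninduced over Control gave 452 higher and 533 lower, with 284 higher by plain totals, 725 and 815 without a filter, 814 and 1045 by DESeq2, 93 and 126 with the 4 libraries, and 185 to 1007 and 260 to 1165 with a library left out. Induced over uninduced gave 282 and 75, with 34 lower by plain totals, 675 and 314 without a filter, 746 and 492 by DESeq2, 70 and 1 with the 4 libraries, and 156 to 951 and 15 to 549 with a library left out. Induced over Control gave 34 and 0, with 1 lower by plain totals, 247 and 57 without a filter, 179 and 49 by DESeq2, 142 and 35 with the 4 libraries, and 20 to 266 and 0 to 71 with a library left out.

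Over all tested genes, same-numbered libraries did not deviate together (r from -0.04 to 0.03). A pairing that acts on few genes would not show in these values, and the labels do not give one. With the replicate block, 2 receptor genes were lower in uninduced over Control and 2 higher in induced over uninduced, Flt3 being added each time. Over all genes the block gave 524 and 623, 401 and 133, and 101 and 7 in the 3 comparisons.

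With a library left out, fold changes that changed sign ranged from -2.53 to 0.47 for Il7r in uninduced over Control. In induced over uninduced they ranged from -0.17 to 2.82 for Il7r, -1.42 to 0.23 for Csf2rb, -1.04 to 0.14 for Csf3r, -0.54 to 0.32 for Csf2ra and -0.32 to 0.38 for Il3ra, which was also 0.0042 without a filter and 0.0064 by TMM before it. In induced over Control they ranged from -0.085 to 0.93 for Flt3, -0.38 to 0.74 for Il7r, -0.10 to 0.50 for Crlf2 and -0.0035 to 1.36 for Csf2ra.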
